A study of Populus tremula x Populus alba with 20 samples.

Results

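The chilling response of untransformed hybrid poplar buds was described from 4 wild-type (WT) libraries of a series of 20. The members were the WT libraries alone, 2 from buds chilled for 2 weeks (CH2) set against 2 from buds harvested before chilling (SD8). The other 16 libraries came from 4 lines that overexpress TEMPRANILLO-like proteins (TEML1_1ox, TEML1_2ox, TEML2_1ox and TEML2_2ox) and were used only where WT was compared with them. All plants were of a single hybrid clone, INRA 717 1B4 (Populus tremula x alba), which is widely used because it is easily transformed. The promoter of the transgenes is not stated in the labels.

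WT CH2 plants had 8 weeks of short days followed by 2 weeks of short days at 4 °C. WT SD8 plants had the 8 weeks of short days only. Both were grown in pots beforehand at 22 °C in long days, for 6 weeks by one label and 4 by another, and buds were cut at the same hour, ZT7 (7 h after lights on). A replicate was a pool, of 3 buds in one label and 2 plants in another, and the labels call the replicates biological. Chilling, the 2 further weeks and the separate deposited table of each harvest coincide, so their effects cannot be told apart. A bulk bud sample cannot tell fewer cells of a type from less RNA per cell.

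In temperate trees, short days stop apical growth and lead to a closed bud around the shoot meristem and leaf primordia. The meristem then enters a dormant state in which warmth alone does not restart growth. A period of chilling is known to release that state, and it also brings cold acclimation, in which genes for protective proteins and sugar metabolism are activated. The gene identifiers are not paired with names in the files used here. Genes are therefore described by level, direction and size of change, 4 of them by identifier, and markers of bud tissue or of dormancy pathways could not be checked.

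Depth was even. WT CH2 libraries held 38020593 and 37327490 counts, against 38084675 and 36979917 in WT SD8 libraries, over 31823 listed genes. The totals averaged 37674000 ± 490098 at CH2 and 37532300 ± 781182 at SD8 (SD, n = 2 each). In the whole series no library was below 35779227 counts.

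After 2 weeks at 4 °C, most of the genes tested differed from their level before chilling. Of 26003 genes, 17505 passed the threshold (67.3% of the genes tested, edgeR quasi-likelihood test, Benjamini-Hochberg adjusted p under 0.05). Of these, 8596 were higher at CH2 (33.1%) and 8909 lower (34.3%). The even split by number hides an uneven split by size. Genes that rose did so by a median log2 fold change of 0.75, while the median of genes that fell was -1.14. Changes under 1.5-fold made up 33.9% of the genes that rose and 20.1% of those that fell. Changes over 8-fold were found in 255 genes that rose and 754 that fell. These counts take in called genes with 0 counts in both libraries of a harvest, whose fitted size is no bound. Such genes, 175 of those tested, entered the test only through the other harvest. Each had an absolute log2 fold change of at least 6.33.

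A second test asked whether a change was larger than 2-fold, rather than different from none (edgeR glmTreat on the same fit, adjusted p under 0.05). It called 4620 genes (17.8% of those tested), 1648 higher (6.34%) and 2972 lower (11.4%) at CH2. Large decreases thus outnumbered large increases over all genes tested. That order held under each of the 4 ways of scaling the libraries, from 1672 higher and 2936 lower with RLE factors to 962 higher and 4399 lower with library totals only. It did not hold at every level. Beyond 2-fold, 344 genes were higher and 1500 lower at 1 to 10 CPM, but 314 higher and 80 lower at 100 to 1000 CPM.

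The balance of all calls, by contrast, depended on scaling. TMM, which assumes that most genes keep their level, gave factors of 0.891 and 0.903 to WT CH2 libraries, against 1.12 and 1.12 to WT SD8 libraries. Genes that were higher made up 49.1% of calls with TMM and 49.6% with RLE. The share was 40.7% with upper quartile scaling and 30.6% with library totals only. The median log2 fold change of all genes tested moved with it, at -0.04, -0.03, -0.18 and -0.35 in the same order. Directions below are relative to TMM scaling unless stated.

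The second feature of the response was its dependence on level. Genes were put in classes by their mean over the 4 WT libraries in CPM, read counts brought to a common library total with the TMM factors. CPM is not corrected for transcript length, so a class holds genes with a like number of reads, not necessarily a like number of transcripts. Among genes with few reads most calls were decreases, and among genes with many reads most were increases. In the class of 1 to 10 CPM, 1268 of 7931 genes rose (16.0%) and 3629 fell (45.8%). In the class of 100 to 1000 CPM, 1241 of 1873 genes rose (66.3%) and 301 fell (16.1%). The class of 10 to 100 CPM, with 13380 genes, lay between them, with 42.9% higher and 30.4% lower.

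**Figure D1:**
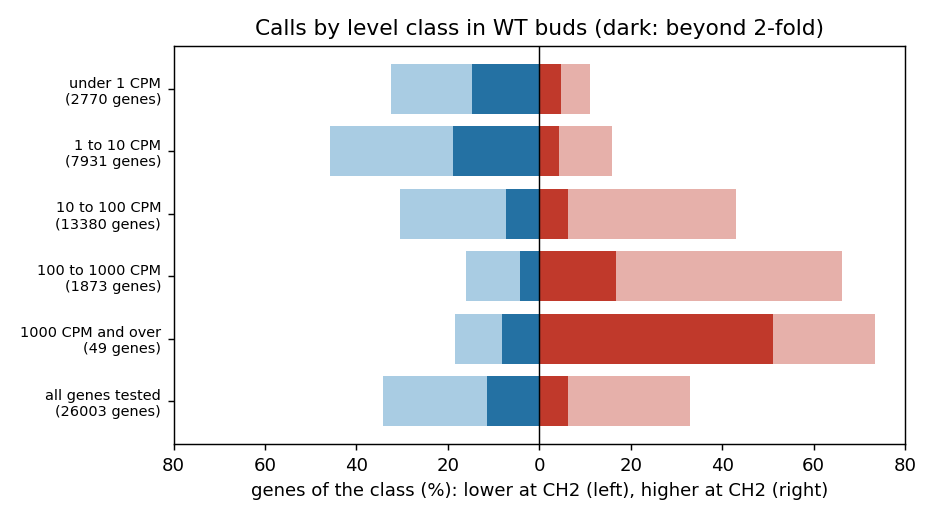
Share of genes called lower (left) or higher (right) at CH2 than at SD8 in WT buds, by class of mean CPM over the 4 WT libraries, with the number of genes tested in brackets. Light bars are all calls at an adjusted p under 0.05 and dark bars those beyond 2-fold. Of all calls, lower ones lead in the 2 lowest classes and higher ones in the 3 highest; beyond 2-fold, lower calls also lead at 10 to 100 CPM (983 against 832 higher).

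The median log2 fold change followed the same order. It was -0.67 for genes under 1 CPM, -0.48 for 1 to 10 CPM, 0.13 for 10 to 100 CPM, 0.50 for 100 to 1000 CPM and 1.28 for the 49 genes at 1000 CPM and over, against -0.04 for all genes tested. In the highest class 36 genes rose and 9 fell, 25 and 4 of them beyond 2-fold. Below 1 CPM 305 genes rose and 899 fell, of 2770 tested. A gene of that class enters the test only if it has enough reads in at least 2 libraries, so many entered through the harvest where they were higher, and the class median is given as a description only. Scaling moves all classes together. With library totals only, the class of 10 to 100 CPM had a median of -0.18, with 3441 genes higher and 6146 lower, and with upper quartile scaling it was at -0.01, so the direction of that class is not fixed. The other 4 classes kept the sign of their median under each of the 4 scalings.

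How a class is defined also matters. Each class median was set against the median of all genes, which removes scaling. Classes by the mean of both harvests gave -0.44 for 1 to 10 CPM and 0.54 for 100 to 1000 CPM. Classes by the SD8 level alone gave -0.35 and 0.23, and classes by the CH2 level alone gave -0.45 and 0.68. These 2 classes thus kept their sides. The class of 1000 CPM and over did not. It was at 1.32 by the mean of both harvests and 1.73 by the CH2 level, but at -0.42 by the SD8 level, which picks genes that were high before chilling.

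**Figure D2:**
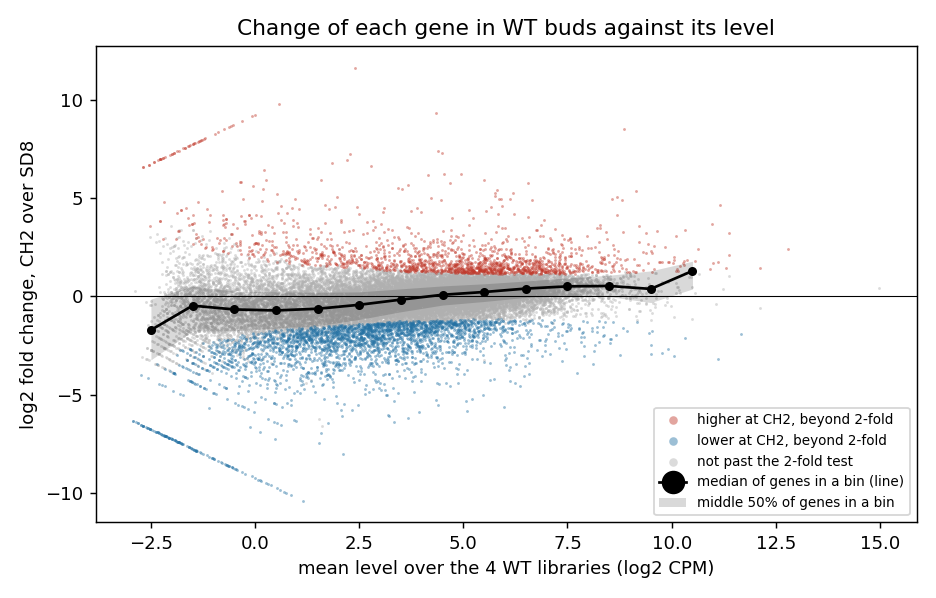
Log2 fold change of each of 26003 genes in WT buds, CH2 over SD8, against its mean level over the 4 WT libraries in log2 CPM. Coloured points passed the test beyond 2-fold (red 1648 higher, blue 2972 lower), and the black line is the median of genes in bins of 1 log2 unit with the middle 50% shaded. The line lies below 0 at low levels and above 0 at high levels; of the 161 genes under 1 CPM with a change beyond 6 log2 units, which form the outermost streaks, 160 had no reads in either library of a harvest, and their fitted size is no bound.

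Replicates of single genes lay closer together with each higher class up to 100 to 1000 CPM, but not at 1000 CPM and over. For 10 to 100 CPM the median SD of a gene between replicates was 0.0596 log2 units at CH2 and 0.0806 at SD8 (n = 2 libraries each). Under 1 CPM it was 0.336 at CH2 and 0.306 at SD8. At 100 to 1000 CPM it was 0.0417 at CH2 and 0.0692 at SD8, and at 1000 CPM and over 0.0740 and 0.128. The biological coefficient of variation of the fit was 0.106.

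Over all 31823 listed genes, 25446 were in the same class at CH2 as at SD8, 2578 were in a higher class at CH2 and 3799 in a lower one. The move was by more than 1 class for 77 genes. Of the genes in the same class, 7880 were under 1 CPM at both harvests. Among all listed genes, 2437 had 0 counts in all 4 WT libraries and could not change class. Most genes in a higher class were 1037 with 100 to 1000 CPM at CH2 and 10 to 100 CPM at SD8, and 982 with 10 to 100 CPM at CH2 and 1 to 10 CPM at SD8. Among those in a lower class, 1856 had 1 to 10 CPM at CH2 and 10 to 100 CPM at SD8, and 1605 had under 1 CPM at CH2 and 1 to 10 CPM at SD8. Of the 31 genes at 1000 CPM and over at SD8, 16 were still there at CH2, joined by 49 from the class of 100 to 1000 CPM and 2 from that of 10 to 100 CPM.

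By a strict rule, few of the 31823 listed genes crossed between silence and expression. Those with 0 counts in both SD8 libraries and at least 10 in both CH2 libraries numbered 51. The reverse, at least 10 counts in both SD8 libraries and 0 in both CH2 libraries, was seen for 136 genes. A count of 0 covers counting error only. With a line at 1 CPM instead, 1641 genes averaged 1 CPM or more at SD8 and under 1 CPM at CH2. The reverse was seen for 493 genes. At least 1 CPM in all 4 WT libraries was found for 21428 genes.

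The chilled transcript pool was held by fewer genes. In WT CH2 libraries 1551 and 1606 genes took 50% of the counts, against 2215 and 2222 genes in WT SD8 libraries. The 100 genes with the most counts took 18.4% and 17.9% at CH2, against 14.5% and 14.6% at SD8. At least 10 counts were found for 24945 and 24905 genes at CH2, against 25878 and 26005 at SD8. The harvests did not overlap in any of these 3 measures. With 2 libraries against 2, the exact permutation test (2-sided) gave p = 0.333 for each, the smallest it can give. CH2 minus SD8, the mean number of detected genes differed by -1026 with counts thinned to the smallest WT total and by -1016.5 at the deposited depth.

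**Figure D3:**
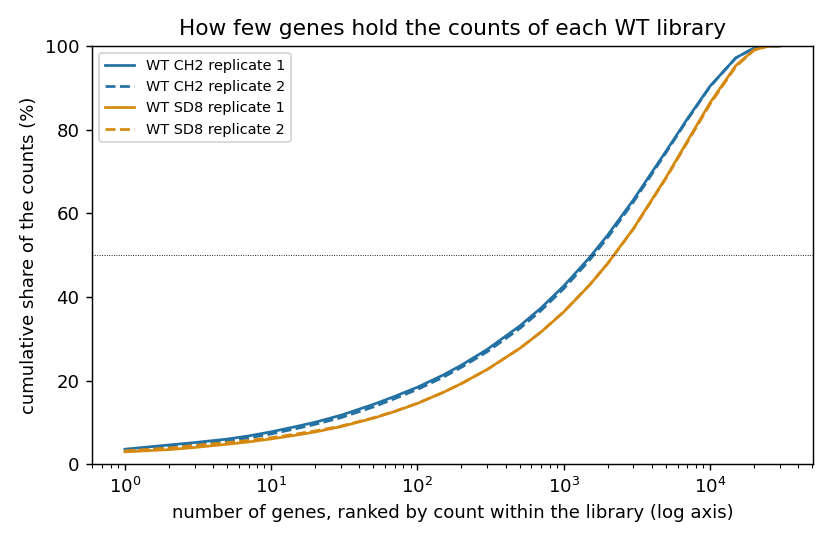
Cumulative share of the counts (%) held by the most abundant genes of each WT library, against the number of genes on a log axis. The 2 CH2 curves run above the 2 SD8 curves, and they cross the dotted line at 50% at 1551 and 1606 genes, against 2215 and 2222 at SD8.

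In the overexpressor lines, which share no library with WT, not all of these measures separated the harvests. The number of genes that took 50% of the counts ran from 1476 to 1691 in the 8 overexpressor CH2 libraries (median 1585.5), against 1938 to 2411 in the 8 overexpressor SD8 libraries (median 2050.5). The ranges of the harvests did not overlap. The share of the 100 genes with the most counts did overlap, at 16.9% to 20.1% in the overexpressor CH2 libraries (median 18.5%), against 12.9% to 18.0% in the SD8 libraries (median 16.8%). Within a line, the harvests overlapped in that measure only in TEML1_1ox, with 16.9% and 20.1% at CH2, against 16.1% and 17.3% at SD8. In TEML1_2ox, TEML2_1ox and TEML2_2ox both CH2 libraries lay above both SD8 libraries. At least 10 counts were found for 24689 to 25137 genes in the overexpressor CH2 libraries, against 25834 to 26393 in the SD8 libraries, without overlap.

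To measure how much of the pool changed hands, the summed absolute difference in count share between 2 libraries was divided by 2. Between harvests this redistributed share was 24.1% ± 0.277 (SD over 4 pairs of libraries, which share libraries). Within a harvest it was 3.47% between the CH2 replicates and 5.38% between the SD8 replicates. A library drawn again from its own counts gave 0.748% to 0.819%, the part due to counting error. So the harvests differed by over 4 times the difference between replicates. Of the 100 genes with the most counts, 50 to 52 were shared between a CH2 and an SD8 library, against 97 between CH2 replicates and 90 between SD8 replicates.

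With classes by the mean of both harvests, the higher classes took a larger share of the reads at CH2. Genes at 1000 CPM and over took 13.7% and 13.1% of the counts at CH2, against 9.77% and 9.87% at SD8. Genes of 100 to 1000 CPM took 39.6% and 39.6% at CH2, against 36.1% and 35.9% at SD8. The class of 10 to 100 CPM, which held the largest share of any class in each of the 4 libraries, took 43.7% and 44.4% at CH2, against 49.5% and 49.2% at SD8. Genes of 1 to 10 CPM took 2.78% and 2.82% at CH2, against 4.48% and 4.76% at SD8. Shares of the deposited counts do not depend on a scaling factor, and in each of these 4 classes the harvests did not overlap.

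The direction of the highest class again depended on its definition, in values added after seeing the data, and so did that of the lowest class. The 31 genes at 1000 CPM and over at SD8 took 8.58% and 8.01% of the counts at CH2, against 9.07% and 9.22% at SD8. The 67 genes at that level at CH2 took 16.0% and 15.4% at CH2, against 9.22% and 9.35% at SD8. Tested genes under 1 CPM at SD8 took 0.195% and 0.211% at CH2, against 0.141% and 0.155% at SD8. Those under 1 CPM at CH2 took 0.151% and 0.150% at CH2, against 0.562% and 0.662% at SD8. Genes of 100 to 1000 CPM took more at CH2 by either definition. Classed by the SD8 level they took 36.5% and 36.3% at CH2, against 34.1% and 34.0% at SD8. Genes of 10 to 100 CPM took less at CH2 by either definition. Classed by the SD8 level they took 51.0% and 51.6% at CH2, against 52.6% and 52.3% at SD8. Classed by the CH2 level they took 39.1% and 39.6% at CH2, against 46.4% and 46.1% at SD8.

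In share of deposited counts, gains were concentrated in fewer genes than losses. By this measure 10252 genes gained and 19134 lost, each side amounting to 23.8% of the pool. The sides are equal by construction, since shares have a fixed total, and gains of abundant genes lower the shares of others. With TMM scaling the split was nearer even, at 12613 genes with a positive log2 fold change and 13390 with a negative one, of 26003 tested. The part of the fixed total in the concentration was not tested. The 246 genes with the largest gains made up 50% of the gain, while 928 genes were needed for 50% of the loss. The top 10 genes made up 13.6% of the gain and 9.32% of the loss.

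The 2 genes with the largest gain and the 2 with the largest loss of mean CPM, among genes past the 2-fold test whose harvests did not overlap, are given by identifier. PtXaAlbH.06G007600.v5.1 stood at 11333 and 12417 CPM in WT CH2 buds, against 2240 and 2245 CPM in WT SD8 buds. This is 1.07% of all counts at CH2 and 0.250% at SD8. Its log2 fold change was 2.40 ± 0.14 (SE, edgeR adjusted p = 8.83e-06), a 5.29-fold higher level. PtXaAlbH.02G011400.v5.1 stood at 4845 and 4804 CPM at CH2, against 541 and 483 CPM at SD8. The replicates differed by a small part of that gap. Its log2 fold change was 3.24 ± 0.12 (SE, edgeR adjusted p = 2.00e-06), a 9.43-fold higher level.

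PtXaAlbH.04G010300.v5.1 stood at 1391 and 1337 CPM in WT CH2 buds, against 4617 and 5697 CPM in WT SD8 buds. Its SD8 replicates were further apart than its CH2 replicates. Its log2 fold change was -1.92 ± 0.14 (SE, edgeR adjusted p = 2.20e-05). PtXaAlbH.03G180200.v5.1 stood at 444 and 432 CPM at CH2, against 4329 and 3593 CPM at SD8. It took 0.0393% of the counts at CH2 and 0.442% at SD8. Its log2 fold change was -3.18 ± 0.13 (SE, edgeR adjusted p = 2.73e-06). No role is given for these genes, since the files do not name them.

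**Figure D4:**
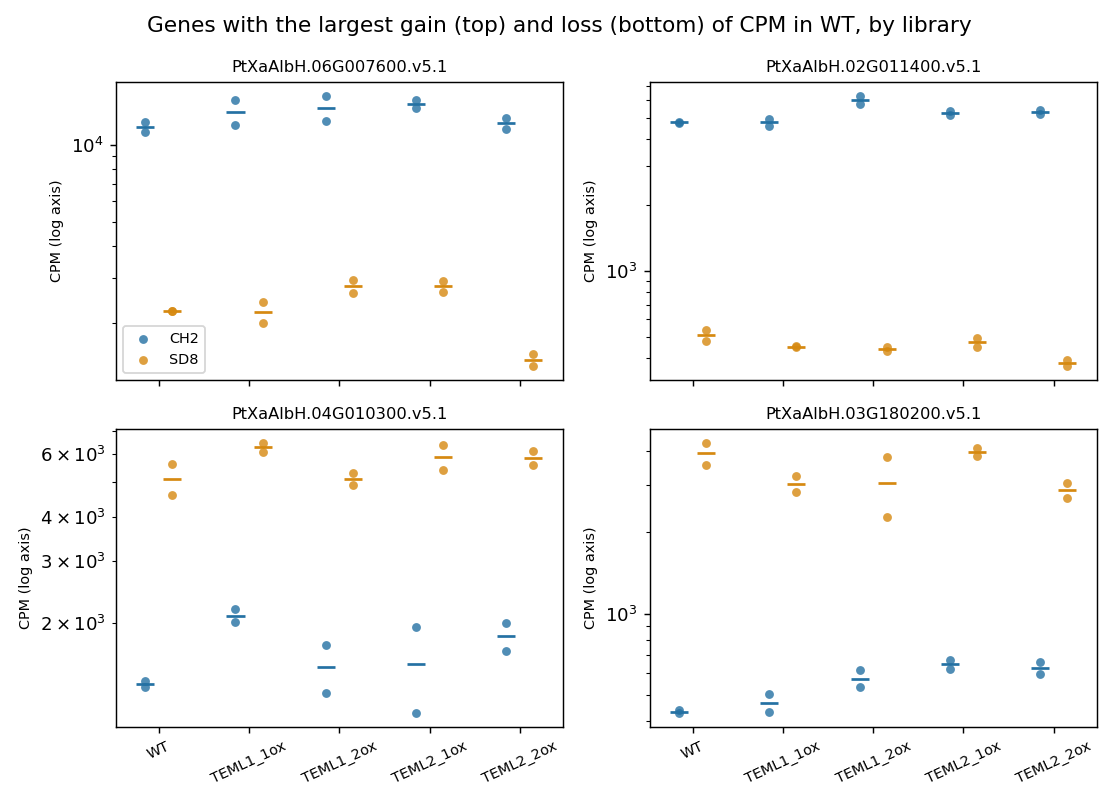
CPM (log axis, scaled over all 20 libraries) of the 2 genes with the largest gain (top) and the 2 with the largest loss (bottom) of mean CPM in WT, in WT and the 4 overexpressor lines. Each point is a library, the short line the mean of 2 replicates, blue is CH2 and orange SD8. In every line the CH2 and SD8 points of each gene lie apart, on the same sides as in WT.

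The gene with the most reads was not called. PtXaAlbH.13G084200.v5.1, singled out after its values were seen, took 3.60% and 3.03% of the counts at CH2, against 2.96% and 3.22% at SD8. These shares, which carry no scaling factor, overlapped between the harvests. The rule of no overlap for the 4 named genes used TMM-scaled CPM instead, so the 2 are not alike. With the TMM factors, both CH2 values of this gene lay above both SD8 values. With TMM scaling, the log2 fold change of 0.42 ± 0.20 did not pass the threshold (SE, edgeR adjusted p = 0.101). The gene held the most reads at both harvests.

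The 4 named genes moved the same way in the overexpressors. With all 20 libraries scaled together, PtXaAlbH.06G007600.v5.1 ran from 11522 to 15539 CPM in the 8 overexpressor CH2 libraries, against 1356 to 2958 CPM in the 8 SD8 libraries. PtXaAlbH.03G180200.v5.1 ran from 431 to 671 CPM at CH2, against 2289 to 4114 CPM at SD8. For PtXaAlbH.02G011400.v5.1 the log2 fold change was smaller in WT, at 3.23, than in the lines, at 3.41 to 3.81. WT minus the mean of the lines was -0.39 ± 0.10 for this gene (SE, edgeR adjusted p = 0.0387). That call was lost without CH2 replicate 1 or 2, SD8 replicate 1 or the line TEML2_2ox (edgeR adjusted p of 0.181, 0.134, 0.242 and 0.171). The difference did not pass for PtXaAlbH.06G007600.v5.1 (edgeR adjusted p = 0.498), PtXaAlbH.04G010300.v5.1 (edgeR adjusted p = 0.688) or PtXaAlbH.03G180200.v5.1 (edgeR adjusted p = 0.0511).

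The response of WT was set against that of the lines to see how much of it was shared. Of the 17505 genes called in WT, 98.0% had the same sign in TEML1_1ox, 96.9% in TEML1_2ox, 97.7% in TEML2_1ox and 95.2% in TEML2_2ox. The same sign in all 4 lines was found for 16144 genes (92.2%) and in no line for 59. The share with the same sign among all genes tested is not given here, so these shares cannot be set against genes in general. Beyond 2-fold in WT, 99.4% to 99.8% of the 4620 genes had the same sign in a line. WT calls that a line also called in the same direction made up 83.7% to 86.1% of them, and the opposite call was made for 27 to 175 genes. In the lines themselves, of 27337 genes, 32.1% were called higher and 33.2% lower in TEML1_1ox, and 32.3% higher and 33.8% lower in TEML1_2ox. The shares were 32.2% higher and 33.9% lower in TEML2_1ox, and 34.3% higher and 35.8% lower in TEML2_2ox. Across 26003 genes the log2 fold changes of WT and a line correlated at r = 0.85 to 0.89 (Spearman's rho 0.87 to 0.92). Genes are not independent, and WT and the lines share the 2 harvests and tables, so whatever set the tables apart would be shared too.

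The order of the level classes was the same in each line. For 1 to 10 CPM the median log2 fold change was -0.48 in WT and -0.53 to -0.46 in the lines. For 100 to 1000 CPM it was 0.50 in WT and 0.48 to 0.51 in the lines. At 1000 CPM and over it was 1.28 in WT and 0.892 to 1.498 in the lines.

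A smaller set of genes responded differently in WT. The change in WT minus the mean change in the 4 lines passed the threshold for 1262 of 27337 genes (4.62%, edgeR interaction test on 10 groups of line and harvest). It was more positive in WT for 511 genes (1.87%) and more negative for 751 (2.75%), and 5970 genes had an unadjusted p under 0.05. These differences were small, with a median absolute size of 0.48 log2 units and 139 genes at 2-fold or more. Among those tested in WT, 523 changed in the same direction but further in WT, 426 in the same direction but less far, and 306 had opposite signs. The count rested on single WT libraries. It was 3 without CH2 replicate 1, 96 without CH2 replicate 2, 24 without SD8 replicate 1 and 1318 without SD8 replicate 2, where the remaining library is assumed to vary like the other groups. Without TEML2_2ox it was 290.

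Genes close to each other in the list of identifiers changed somewhat alike. The identifiers carry a number from 1 to 19 and a running number, which give an order; no genome was used here, so distances in bases are not given. Genes next to each other in that order correlated in log2 fold change at r = 0.12 over 25984 pairs, which is weak, genes 5 apart at 0.03 and genes 100 apart at -0.01. Their levels correlated too, at r = 0.10, 0.03 and 0.01. Of the 1648 genes higher beyond 2-fold, 12.4% were followed by another such gene, against 6.34% of all genes tested. Of 2971 genes lower beyond 2-fold with a gene after them, 16.2% were followed by another, against 11.4% of all. Runs of at least 3 such genes in a row numbered 28 for increases, the longest of 8 genes, and 85 for decreases, the longest of 6. Decreases were the more frequent call, and the number of runs that frequency alone would give was not computed. The 2 counts of runs therefore do not compare the directions. Reads of near-identical neighbouring copies may be split or shared by counting, and the part of this in the likeness was not tested.

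**Figure D5:**
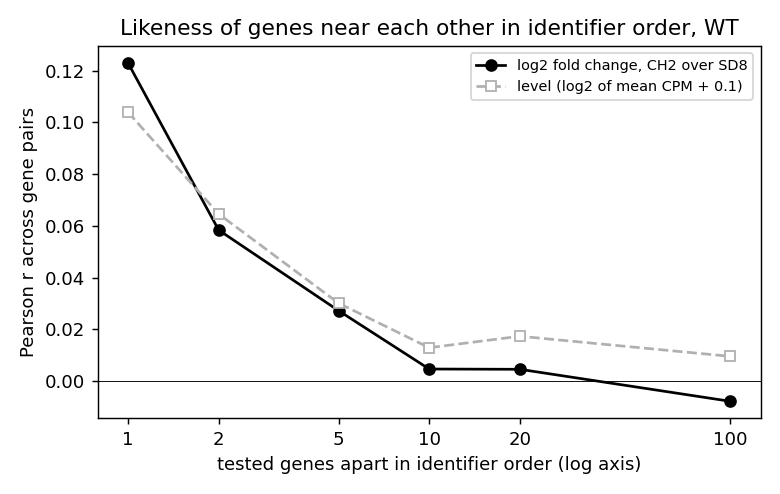
Pearson r across pairs of tested genes that lie 1 to 100 genes apart in identifier order (log axis), for the log2 fold change in WT (black) and for the level (grey). Likeness of change is 0.12 for genes next to each other and near 0 from 10 genes apart.

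By the number in the identifier, genes beyond 2-fold made up 14.6% (number 18) to 20.9% (number 19) of the genes tested, against 17.8% overall. Genes called higher ranged from 28.7% (number 19) to 37.7% (number 9), against 33.1% overall. The median log2 fold change ran from -0.18 (number 19) to 0.05 (number 9).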

How the data were processed

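Raw counts were deposited by the authors in a table for each harvest, and the tables were joined on the gene identifier. Per the labels' protocols, libraries were stranded mRNA libraries. The submitters' processing notes name HISAT2; no version, counting program, strand setting, genome build or filter is stated there or in the labels. The column of WT replicate 1 at SD8 carries an extra digit and matched no other sample. Intervals and floors on counts cover counting error only.

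WT CH2 and WT SD8 (n = 2 each) were compared with edgeR 4.0.16 in R 4.3.3: filterByExpr on the 4 libraries, TMM scaling, quasi-likelihood test, glmTreat at a log2 fold change of 1, Benjamini-Hochberg adjustment over all genes tested, threshold 0.05. The interaction used all 20 libraries in 10 groups. The SE is the absolute log2 fold change over the square root of F. Log2 CPM used a prior count of 2. The WT replicates differed by more than sampling noise (chi-square per degree of freedom 7.32 at CH2 and 16.4 at SD8), so none were merged. The fits were tested on simulated data in which a small set of genes was shifted, equally up and down. Most genes kept their level there by design, so the simulation cannot judge the scaling of a response this broad.

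Named genes were the 2 largest gains and 2 largest losses of mean CPM among genes past the 2-fold test with no overlap between harvests. Gene lists and tissue markers match on names and were void. Members, classes and rules were chosen with earlier results of these data known. Alternatives were RLE, upper quartile and no scaling factor, other filters, DESeq2 1.42.0, limma 3.58.1 (voom), a replicate block, 20-library fits and each replicate left out.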

Additional observations from a re-analysis of the deposited data

Results flagged for a closer look

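The difference between the WT response and the mean response of the 4 overexpressor lines passed the edgeR interaction test for 1262 genes, and it is listed because a test of the difference between groups called it. It was 511 genes more positive and 751 more negative in WT. Each WT harvest has 2 libraries, so a test for outlying libraries was not possible.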

How the results depend on the processing

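The count of 17505 genes stayed between 13746 (adjusted p under 0.01) and 18167 (20 libraries in 10 groups) under every alternative, and was 13827 to 17275 with a replicate left out. DESeq2 gave 15996 and limma-voom 17367. A like total does not mean the same genes. With library totals only 17769 genes were called, 5433 higher and 12336 lower, and 14342 of them were also called with TMM. Of the calls with upper quartile scaling 15994 were also called with TMM, and of those with RLE 17407. The count beyond 2-fold was 3214 to 4763 with a replicate left out, against 4620. The share of higher calls, 49.1%, was 40.7% with upper quartile scaling and 30.6% with library totals only. Class medians relative to all genes, for classes from the lowest to the highest, were -0.072, -0.35, 0.12, 0.23 and -0.42 when classes used the SD8 mean, the last of these a reversed sign. With the CH2 mean they were -1.28, -0.45, 0.22, 0.68 and 1.73. With a replicate left out they ran from -0.72 to -0.57, -0.47 to -0.42, 0.15 to 0.19, 0.52 to 0.56 and 1.21 to 1.41. Scaling alternatives, added after seeing the data, left them within the spread between replicates. The redistributed share was 23.8% to 24.3% with a replicate left out. The difference in detected genes was -1092.5 at 1 CPM and -1661 at 50 counts. The interaction count of 1262 was 3 to 1318 with a WT replicate left out, 290 without TEML2_2ox, 2035 with DESeq2 and 1001 with the replicate block; the cause was not tested. The neighbour correlation was 0.110 with a stricter filter and 0.111 after subtracting class medians, both added after seeing the data.

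Replicate numbers mark no shared plant or day in the labels. With the replicate number as a block 16353 genes were called. Deviations of same-numbered replicates correlated at r = -0.10 across genes, and a crossed pairing, added after seeing the data, gave 17915. The 4 named genes kept their direction under 14 alternatives. They kept their call under those with all 4 WT libraries (edgeR adjusted p up to 0.000197). With 2 libraries per harvest, spread is known poorly, and depth limits genes under 1 CPM most.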

Other observations

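The SD8 replicates of WT lay further apart than the CH2 replicates, with a redistributed share of 3.47% at CH2 and 5.38% at SD8. A WT fit with 1 library of a harvest left out takes its spread from the pair of the other harvest alone. Its count of calls therefore does not measure the spread of both harvests. In the overexpressor lines the wider pair was not always at the same harvest. It was 6.02% at CH2 and 4.39% at SD8 in TEML1_1ox, 4.80% and 7.29% in TEML1_2ox, 3.95% and 3.77% in TEML2_1ox, and 3.45% and 3.84% in TEML2_2ox. With 1 pair of replicates per line and harvest, no test of this difference was made.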
